A study of Mus musculus with 2 samples.

Results

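The genes described here are interferon-stimulated genes, a set of 39 mouse genes fixed by name and found by symbol in the gene list of the deposited count tables. Of these, 37 were analysed, out of 32285 genes in the tables, and Mx1 and Mx2 are not analysed here. They were counted in single-cell RNA-seq libraries of perigonadal fat (gWAT), from its stromovascular fraction, which is the tissue without its mature adipocytes. All mice were male Cyp1a1 fate reporters (Cyp1a1Cre x R26LSL-eYFP), in which a Cre driven by Cyp1a1, itself induced by the aryl hydrocarbon receptor, leaves a cell and its offspring permanently marked with eYFP. For 12 weeks they had eaten food with 10% fat (low-fat diet, LFD) or with 60% fat (high-fat diet, HFD), and every mouse of both diets was injected with 10 mg/kg of the receptor ligand FICZ, 5 days ahead of the harvest. From pooled mice, live eYFP+ cells were sorted into 1 library per diet, so there is no replicate and no untreated or eYFP-negative control, and each comparison is between a pair of libraries with no test. By the study's methods the diets were begun in young mice, and exact ages were not given in the labels.

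UMIs (unique molecular identifiers, 1 per captured RNA molecule) numbered 114311020 over 11281 LFD barcodes and 119498750 over 9631 HFD barcodes. After filters on UMIs and mitochondrial share and removal of likely doublets, 9294 LFD and 7879 HFD cells were left, and 21 of their barcodes occurred in both libraries. No row of the tables counts eYFP or Cre, so the reporter could not be checked. Cells were clustered without the members and named from marker genes, and 11 types with at least 100 cells in each library were compared. The largest, with 2845 LFD and 1191 HFD cells, is called Wt1-positive stromal-like. It passed 6 of 8 markers of that name, but also 10 of 14 markers of adipose progenitor cells (APCs) and 6 of 10 mesothelial markers, and it is described by this rule only. Mesothelial-like cells (1934 LFD and 1661 HFD) passed 9 of 10 of their markers, endothelial-like cells (661 and 605) 10 of 10, macrophage-like cells (591 and 529) 12 of 12, and APC-like cells (210 and 574) 14 of 14. The mesothelial-like and cycling mesothelial-like clusters likewise passed 10 of 14 APC markers and 6 of 8 Wt1-positive stromal markers, and the APC-like cluster 6 of the latter, so these names overlap. The others were cycling mesothelial-like cells (918 and 574), B-like cells (942 and 724), plasma cell-like cells (202 and 771), cycling plasma cell-like cells (194 and 608), and a pair of T/ILC2-like clusters that carry markers of T cells and group 2 innate lymphoid cells, one led by Il5 (112 and 101) and one led by Ncr1 (125 and 127). The cluster led by Il5 also passed 11 of 12 markers of proliferating cells, beside 11 of 16 of T/ILC2 cells, and the one led by Ncr1 8 of 12 beside 14 of 16. The 10 genes that lead the latter include Klrc2, Xcl1 and Nkg7, which like Ncr1 are known from natural killer cells, beside the T cell genes Cd3d, Cd6 and Foxp3, and it is called here by its list and leading gene only, since no natural killer cell list was used.

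Interferons are secreted proteins that warn cells of infection. Type I interferons act through the receptor Ifnar1 and Ifnar2 on a complex that holds Stat2 and Irf9 and binds the interferon-stimulated response element (ISRE), and interferon gamma acts through Ifngr1 and Ifngr2 on genes with a gamma-activated site (GAS). The genes so induced sense foreign nucleic acids, block viral translation and replication, attack membranes around intracellular microbes and feed back on the pathway. Many are also kept at a low level in tissues without infection.

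Many promoters of the members carry these elements in their letters. RefSeq promoter windows of GRCm38.p6, 250 bases before to 50 after each start, were matched for 30 of the 37 members. The ISRE was searched as GAAA, any 2 bases and GAAA again, and the GAS as TTCNNNGAA, where N is any base, on both strands, and matches were allowed to overlap. An ISRE match lay in a window of 18 of the 30 members (60.0%) and of 3.99% of all 27025 genes, and a GAS match of 9 of 30 (30.0%) and 9.55% of all genes. Counted by windows, of which a gene can have several, 51.4% of 37 member windows and 3.44% of all 32851 held an ISRE match, and 24.3% and 8.30% a GAS match. Both matches were found for 5 members. A match is a description of letters and not a measured binding site. The ISRE matches were in Stat2, Ifih1, Ddx58, Ifit1, Ifit3, Ifit3b, Oas1a, Oas3, Rsad2, Eif2ak2, Bst2, Trim30a, Isg15, Gbp2, Gbp3, Gbp7, Igtp and Irgm1, and the GAS matches in Irf1, Ifit2, Oas1a, Eif2ak2, Isg20, Bst2, Gbp7, Igtp and Ifi35. Neither motif was found in the windows of Irf7, Irf9, Oasl1, Oasl2, Cmpk2, Ifi47, Ifi44 and Xaf1. No promoter window was matched for Dhx58, Zbp1, Oas2, Rtp4, Ifi27l2a, Usp18 and Parp14. The stretches below belong to members on which the diet comparison turns and that have an ISRE match, of which Isg15, Ifit1 and Bst2 had ratios below 1 and Irgm1 above 1 in every type in which they passed the minimum, and the others (Ifit3, Rsad2, Gbp2) had ratios on both sides of 1, and to Irf1 for its GAS match. They run 5′ to 3′ on the gene's strand, and capitals mark the motif, which for an ISRE on the opposite strand reads TTTC, 2 bases, TTTC.
Isg15: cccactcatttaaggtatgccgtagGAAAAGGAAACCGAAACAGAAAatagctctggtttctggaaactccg
Ifit1: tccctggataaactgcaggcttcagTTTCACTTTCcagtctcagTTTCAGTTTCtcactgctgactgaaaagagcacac
Ifit3: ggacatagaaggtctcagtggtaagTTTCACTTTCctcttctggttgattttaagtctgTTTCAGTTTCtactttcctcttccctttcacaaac
Rsad2: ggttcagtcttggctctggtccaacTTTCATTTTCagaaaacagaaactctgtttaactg
Bst2: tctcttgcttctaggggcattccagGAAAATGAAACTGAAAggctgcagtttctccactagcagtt
Gbp2: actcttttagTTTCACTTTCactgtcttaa
Irgm1: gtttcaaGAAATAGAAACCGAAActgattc
Irf1: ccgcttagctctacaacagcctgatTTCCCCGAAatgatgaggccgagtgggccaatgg

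The Isg15 stretch (chr4:156200850-156200921, minus strand, 103 to 32 bases before the RefSeq start) holds 3 overlapping ISRE matches. The Ifit1 stretch (chr19:34640760-34640838, plus strand, 129 to 51 bases before the start) and the Ifit3 stretch (chr19:34583348-34583441, plus strand, 181 to 88 bases before it) each hold 2 matches that lie apart. Rsad2 (chr12:26456538-26456597, minus strand) has 1 match, and Bst2 (chr8:71537562-71537627, minus strand) 2 overlapping ones. The Bst2 stretch also holds a GAS match at chr8:71537600-71537608, in capitals only where an ISRE match covers it. The Gbp2 stretch (chr3:142620594-142620623, plus strand, 69 to 40 bases before the start, 1 match) and the Irgm1 stretch (chr11:48871428-48871457, minus strand, 37 to 8 bases before it, 2 overlapping matches) overlap an exon annotated in GENCODE M21, the Gbp2 stretch with its later part only. The Irf1 stretch with the GAS match is at chr11:53769899-53769957 on the plus strand, 115 to 57 bases before the start.

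Transcripts of the ligands were nearly absent. All 20 interferon genes in the tables together had 19 UMIs in all LFD cells and 30 in all HFD cells, of which Ifng made up 12 and 18 and Ifnab 6 and 9, and Ifnb1 had 0 and 1. None reached the minimum of 50 counts over both libraries that was set for a comparison in a cell type. The receptors were present. In Wt1-positive stromal-like cells Ifnar1 had 32.7 counts per 1000000 UMIs of that type (CPM) in the LFD library and 39.9 CPM in the HFD library, and Ifnar2 263 and 193 CPM, and all 6 receptor genes passed the minimum with an HFD to LFD ratio between 1/1.5 and 1.5, the range used here for a ratio not past 1.5-fold. In endothelial-like cells 2 of 5 receptor genes were past that fold, both higher in the HFD library, where 17.4% of all genes were higher and 7.54% lower by this rule. Ifngr1 had 131 CPM and 203 CPM, a ratio of 1.55 (1.37 to 1.76), and Il10rb, the second chain of the interferon lambda and interleukin 10 receptors, 39.3 CPM and 69.5 CPM, a ratio of 1.77 (1.41 to 2.22). In APC-like cells 2 of 5 were past it as well, Ifngr1 higher, at 39.1 CPM and 62.8 CPM (1.60, 1.27 to 2.05), and Ifnar2 lower, at 205 CPM and 133 CPM (0.649, 0.578 to 0.730), beside 15.7% and 5.18% of all genes. The other receptor ratios past the fold were those of Ifngr1 in B-like cells, at 35.0 and 55.7 CPM (1.59, 1.26 to 2.01; 9.5% of all genes higher), and of Ifnar1 in T/ILC2-like cells led by Il5, at 104 and 65.8 CPM (0.635, 0.393 to 1.003; 13% of all genes lower). Values in brackets are exact 95% intervals that cover counting error only, leaving out differences between mice, sorts and libraries.

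Of the 11 compared types, endothelial-like cells had the highest summed level of the 37 members and T/ILC2-like cells led by Il5 the lowest. The former had 2349 CPM (2300 to 2398) in the LFD library against 2356 CPM (2297 to 2417) in the HFD library, and the latter 667 CPM (605 to 733) and 557 CPM (488 to 633). Mesothelial-like cells had 1640 CPM in both libraries, a ratio of 1.00 (0.988 to 1.01), and endothelial-like cells a ratio of 1.00 (0.971 to 1.04), so in these 2 types no difference was detectable at this depth. In the other 9 types the summed level was lower in the HFD library, with intervals below 1. The lowest ratio was 0.685 (0.612 to 0.766) in T/ILC2-like cells led by Ncr1, from 1935 to 1325 CPM. In macrophage-like cells the level was 1262 CPM in LFD and 957 CPM in HFD (ratio 0.758, 0.722 to 0.797), in B-like cells 1345 and 1062 CPM (0.789, 0.756 to 0.825), in the plasma cell-like type 1138 and 913 CPM (0.802, 0.767 to 0.840), in the APC-like type 1462 and 1196 CPM (0.818, 0.785 to 0.853), and in Wt1-positive stromal-like cells 1584 and 1412 CPM (0.892, 0.879 to 0.905). The ratio was 0.878 (0.842 to 0.915) in cycling plasma cell-like cells, 0.953 (0.932 to 0.974) in cycling mesothelial-like cells and 0.835 (0.709 to 0.981) in the Il5-led cells. In the Wt1-positive stromal-like type the direction turned, to 1.06, when cells were restricted to those with at least 2000 UMIs and under 5% mitochondrial UMIs (416 LFD and 246 HFD cells), and in cycling mesothelial-like cells it was 1.01 without the 1% of cells richest in Ifit1, Ifit2, Ifit3, Isg15 and Rsad2. In sums of this kind, fewer cells with a transcript and less transcript per cell cannot be told apart.

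**Figure D1:**
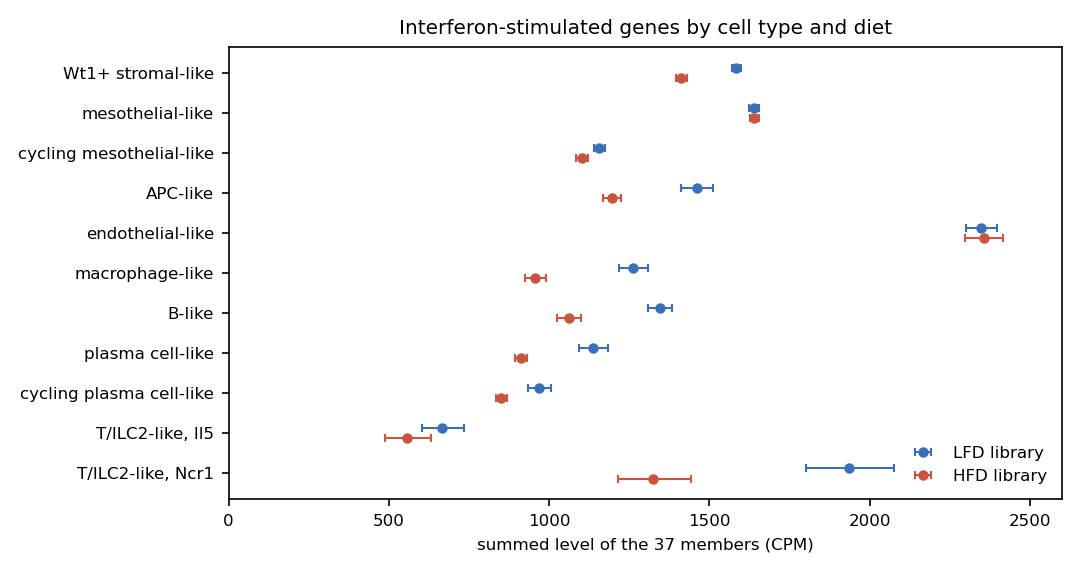
Summed level of the 37 members in CPM (horizontal axis) in each of the 11 compared cell types, with the LFD library in blue and the HFD library in red and bars for the exact 95% Poisson interval of the counts. Endothelial-like cells lie at 2349 and 2356 CPM, and the HFD point lies to the left of the LFD point in 9 types.

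These ratios need to be read against the whole table, since a few abundant genes can shift all others. Over all genes with at least 50 counts, the median ratio was 1.06 in Wt1-positive stromal-like cells, 1.09 in mesothelial-like and in cycling mesothelial-like cells, 1.08 in APC-like, 1.10 in endothelial-like, 1.05 in macrophage-like and in B-like, 0.903 in plasma cell-like and 0.963 in cycling plasma cell-like cells. Against these, the median over the members that passed the minimum was 0.815, 0.955 and 0.860 in the first 3 types, 0.858, 1.08, 0.733 and 0.831 in the next 4, and 0.779 and 0.958 in the last 2. It lay below the median of all genes in each of these 9 types. In the T/ILC2-like clusters few members passed, and the medians were 1.07 over 2 members against 1.01 over all genes when led by Il5, and 0.829 over 7 members against 1.00 when led by Ncr1. When each type was scaled to its own median gene instead, the summed ratio was below 1 in 11 of 11 types, among them 0.915 in mesothelial-like and 0.913 in endothelial-like cells.

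Ratios of single members were then set beside those of all genes. Across the 11 types, 12 ratios of single members were at least 1.5 and 58 were at most 1/1.5. In Wt1-positive stromal-like cells 37 members passed the minimum, of which 2 were past 1.5-fold higher in the HFD library and 9 past 1.5-fold lower, and of all 12367 genes tested in that type 7.84% were higher and 7.27% lower by this rule. In mesothelial-like cells 1 of 37 was higher and 7 were lower (9.06% and 3.79% of all genes), and in cycling mesothelial-like cells 1 of 35 and 11 (7.94% and 3.78%). In APC-like cells 4 of 30 were higher and 6 lower (15.7% and 5.18%), and in endothelial-like cells 2 of 36 were higher and 2 lower (17.4% and 7.54%), so in endothelial-like cells both shares were under those of all genes, as was the share of higher members in mesothelial-like cells. With cells of at least 2000 UMIs and under 5% mitochondrial UMIs, 11 of 28 members were past the fold in endothelial-like cells, all higher, beside 22.4% of all genes higher and 12.8% lower. In macrophage-like cells 0 of 25 were higher and 11 lower (7.66% and 4.06%). B-like cells had 0 of 21 higher and 3 lower (9.5% and 6.13%), plasma cell-like cells 1 of 19 and 5 (6.8% and 14.1%), and cycling plasma cell-like cells 1 of 20 and 3 (5.38% and 5.02%). In the T/ILC2-like clusters only 2 members passed when led by Il5, with 0 past the fold (16.7% and 13% of all genes), and 7 when led by Ncr1, with 0 higher and 1 lower (11.7% and 7.8%). Scaling to the median gene gave 1 higher and 12 lower in Wt1-positive stromal-like cells (5.66% and 9.02% of all genes under that scaling), 1 and 8 in endothelial-like cells (10.8% and 11.9%) and, among plasma cell-like cells, 2 and 3 (11.2% and 8.49%), where the share of higher calls moved by more than 10 percentage points.

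**Figure D2:**
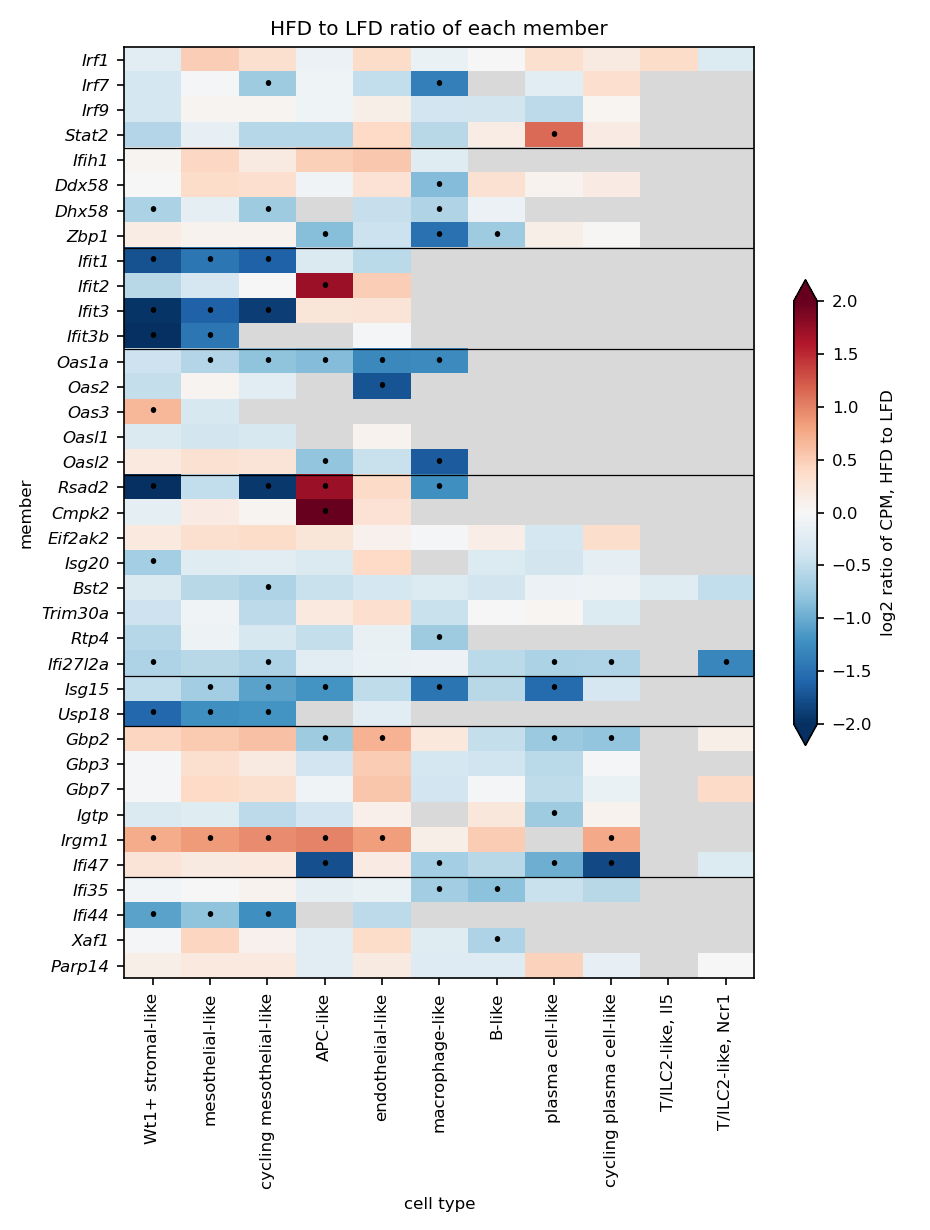
HFD to LFD ratio of CPM on a log2 scale (colour, red for higher and blue for lower in the HFD library, with arrow ends for values past the scale) of each member (rows, in their functional groups) in each cell type (columns), with grey where both libraries together had under 50 counts and a dot where the ratio was past 1.5-fold. The 5 lowest ratios are those of Ifit3b, Rsad2 and Ifit3 in Wt1-positive stromal-like cells and of Rsad2 and Ifit3 in cycling mesothelial-like cells, followed by Ifi47 in cycling plasma cell-like and APC-like cells, and the Irgm1 row is red in 6 columns with a dot.

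The IFIT family had the lowest ratio of the 8 functional groups of members in Wt1-positive stromal-like and mesothelial-like cells. Its proteins bind viral RNA that lacks the host's cap modification and hold it back from translation. Summed over the 4 genes, Wt1-positive stromal-like cells had 92.1 CPM (88.8 to 95.5) in the LFD library against 27.5 CPM (25.2 to 29.9) in the HFD library and a ratio of 0.298 (0.272 to 0.327). Mesothelial-like cells had 61.2 and 23.5 CPM (0.385, 0.351 to 0.420) and cycling mesothelial-like cells 25.04 and 11.8 CPM (0.473, 0.389 to 0.572). In endothelial-like cells, which had 103 and 98.1 CPM, the ratio of 0.956 (0.812 to 1.12) included 1. In APC-like cells the family had 54.9 and 63.6 CPM (1.16, 0.942 to 1.43) and in B-like cells 6.995 and 7.86 CPM (1.12, 0.623 to 2.02), intervals that included 1 as well. Macrophage-like cells had 24.8 and 4.96 CPM (0.200, 0.110 to 0.346), with no single IFIT gene at the minimum in them or in B-like cells. Wt1-positive stromal-like and endothelial-like cells thus lay close together in the LFD library and far apart in the HFD library.

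Ifit1 itself, whose promoter stretch is printed above, had 60.3 CPM (57.6 to 63.1) in LFD against 17.9 CPM (16.1 to 19.9) in HFD in Wt1-positive stromal-like cells and a ratio of 0.297 (0.265 to 0.334). In mesothelial-like cells it had 44.1 and 16.2 CPM (0.367, 0.329 to 0.409) and in cycling mesothelial-like cells 13.7 and 4.48 CPM (0.326, 0.238 to 0.439). At a finer clustering, looked at for the first 2 of these types, Ifit1 ratios were 0.291 and 0.198 in a pair of Wt1-positive stromal-like subclusters and 0.343 and 0.303 in a pair of mesothelial-like ones. In endothelial-like cells Ifit1 had 52.2 and 35.8 CPM (0.685, 0.527 to 0.883), which was not past the fold. Of the UMIs of Ifit1, Ifit2, Ifit3, Isg15 and Rsad2 together, the richest 1% of Wt1-positive stromal-like cells held 29.8% (LFD) and 14.5% (HFD). The Ifit1 ratio of that type includes these cells.

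Ifit3 had 22.1 and 5.69 CPM in Wt1-positive stromal-like cells (0.257, 0.209 to 0.315), 11.6 and 3.77 CPM in mesothelial-like cells (0.326, 0.260 to 0.406, and 0.618 without the 1% of cells richest in Ifit1, Ifit2, Ifit3, Isg15 and Rsad2) and 4.73 and 1.28 CPM in cycling mesothelial-like cells (0.270, 0.147 to 0.468). Its near-identical neighbour Ifit3b had 5.15 and 0.769 CPM in Wt1-positive stromal-like cells (0.149, 0.0817 to 0.254), the lowest ratio of any member in any compared type, and 1.87 and 0.685 CPM in mesothelial-like cells (0.366, 0.207 to 0.624). Reads shared between such copies can be dropped or split by the counting, so the levels of Ifit3 and Ifit3b are uncertain, as are those of other members with close copies (Oas1a, Trim30a and the GBP genes). Ifit2, which differed from the rest of the family, had 4.52 and 3.08 CPM in Wt1-positive stromal-like cells (0.681, 0.495 to 0.927) and 5.991 and 5.997 CPM in cycling mesothelial-like cells. In APC-like cells Ifit2 was higher in the HFD library, with 4.50 CPM (2.16 to 8.28) against 14.7 CPM (11.8 to 18.1) and a ratio of 3.26 (1.69 to 7.04), from 10 and 88 counts.

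Isg15, a ubiquitin-like modifier that is attached to other proteins and also secreted, was lower in the HFD library in 9 of the 9 types where it passed the minimum, with an interval below 1 in 8 of them. Endothelial-like cells had the most, with 160 CPM (148 to 174) in LFD against 113 CPM (100.2 to 127) in HFD and a ratio of 0.703 (0.609 to 0.811). The ratio was lowest in plasma cell-like cells, 97.4 and 33.4 CPM (0.342, 0.286 to 0.410), of whose LFD counts 1 cell held 24.6%; without that cell and its HFD counterpart the ratio was 0.412. In macrophage-like cells Isg15 had 31.2 and 11.4 CPM (0.364, 0.241 to 0.542), in the APC-like type 110 and 48.1 CPM (0.436, 0.366 to 0.519), and in cycling mesothelial-like cells 85.9 and 40.9 CPM (0.476, 0.429 to 0.527). Mesothelial-like cells had 115 and 70.7 CPM (0.616, 0.582 to 0.651) and Wt1-positive stromal-like cells 144 and 102 CPM (0.711, 0.674 to 0.749). Usp18, the protease that removes Isg15 from proteins and dampens signalling at Ifnar2, had 11.6 and 3.90 CPM in Wt1-positive stromal-like cells (0.336, 0.259 to 0.431), 6.19 and 2.64 CPM in mesothelial-like cells (0.426, 0.321 to 0.560) and 5.68 and 2.48 CPM in cycling mesothelial-like cells (0.437, 0.281 to 0.663). In endothelial-like cells its 15.8 and 13.5 CPM did not differ beyond counting error (0.853, 0.543 to 1.32).

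Rsad2, or viperin, an enzyme that makes a chain-terminating nucleotide from CTP, differed in direction between types. In Wt1-positive stromal-like cells it had 20.1 CPM (18.6 to 21.8) in LFD against 4.87 CPM (3.94 to 5.95) in HFD and a ratio of 0.242 (0.193 to 0.3003). A few cells carried much of this difference, since 64.1% of the LFD counts came from the same 1% of cells, and without these cells in both libraries the ratio was 0.553 (0.422 to 0.718). In cycling mesothelial-like cells Rsad2 had 6.68 and 1.76 CPM (0.263, 0.158 to 0.419; 0.497 without such cells), in mesothelial-like cells 10.7 and 7.60 CPM (0.714, 0.597 to 0.852; 1.13 without such cells), and in macrophage-like cells 16.4 and 7.001 CPM (0.427, 0.247 to 0.723). In endothelial-like cells, where its level was highest, it had 85.2 and 112 CPM (1.31, 1.11 to 1.54). In APC-like cells it had 5.85 CPM (3.11 to 10.0) in LFD against 19.4 CPM (16.0 to 23.2) in HFD and a ratio of 3.31 (1.86 to 6.40), but 1 HFD cell held 79.3% of the counts, and the ratio was 0.682 without the highest cell of each library.

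Cmpk2, a mitochondrial nucleotide kinase encoded next to Rsad2 on chromosome 12, passed the fold in APC-like cells alone, with 3 counts (1.35 CPM) in LFD and 47 counts (7.85 CPM) in HFD, a ratio of 5.81 (1.87 to 29.2) that was 3.94 (1.23 to 20.1) without the highest cell of each library. The same HFD cell held 38.0% of the Ifit1 counts and 45.8% of the Ifit3 counts of the APC-like type. With it Ifit1 had 38.2 and 31.2 CPM there (0.816, 0.628 to 1.07), and without the highest cells 35.3 and 19.4 CPM (0.550, 0.409 to 0.742). The Ifit2 ratio of 3.26 was 3.25 without them.

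The OAS enzymes detect double-stranded RNA and make a messenger that switches on RNase L, and Oasl1 and Oasl2 are OAS-like relatives. Oas1a was lower past 1.5-fold in 5 of the 6 types in which it passed, with ratios from 0.408 (0.203 to 0.765) in endothelial-like cells, 12.7 and 5.16 CPM, to 0.666 (0.567 to 0.782) in mesothelial-like cells, 13.6 and 9.04 CPM. In APC-like cells it had 9.45 and 5.17 CPM (0.548, 0.305 to 1.003), and in Wt1-positive stromal-like cells its ratio was 0.747 (0.614 to 0.906). Oas2 had 11.9 and 3.58 CPM in endothelial-like cells (0.301, 0.129 to 0.624), from 45 and 9 counts, but 8.75 and 9.11 CPM in mesothelial-like cells (1.04, 0.872 to 1.24). The direction of Oasl2 differed between types. It had 127 and 158 CPM in mesothelial-like cells (1.24, 1.19 to 1.30), 80.8 and 96.6 CPM in cycling mesothelial-like cells (1.20, 1.10 to 1.29) and 107 and 122 CPM in Wt1-positive stromal-like cells (1.15, 1.09 to 1.21), against 33.2 and 10.5 CPM in macrophage-like cells (0.316, 0.208 to 0.473) and 49.5 and 28.7 CPM in APC-like cells (0.580, 0.454 to 0.744). Oas3, at 1.23 and 1.95 CPM in Wt1-positive stromal-like cells, had a ratio of 1.58 (0.985 to 2.54) whose interval included 1 and which was 0.891 in cells with at least 2000 UMIs and under 5% mitochondrial UMIs, and Oasl1 had ratios from 0.773 to 1.05 in its 4 types.

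**Figure D3:**
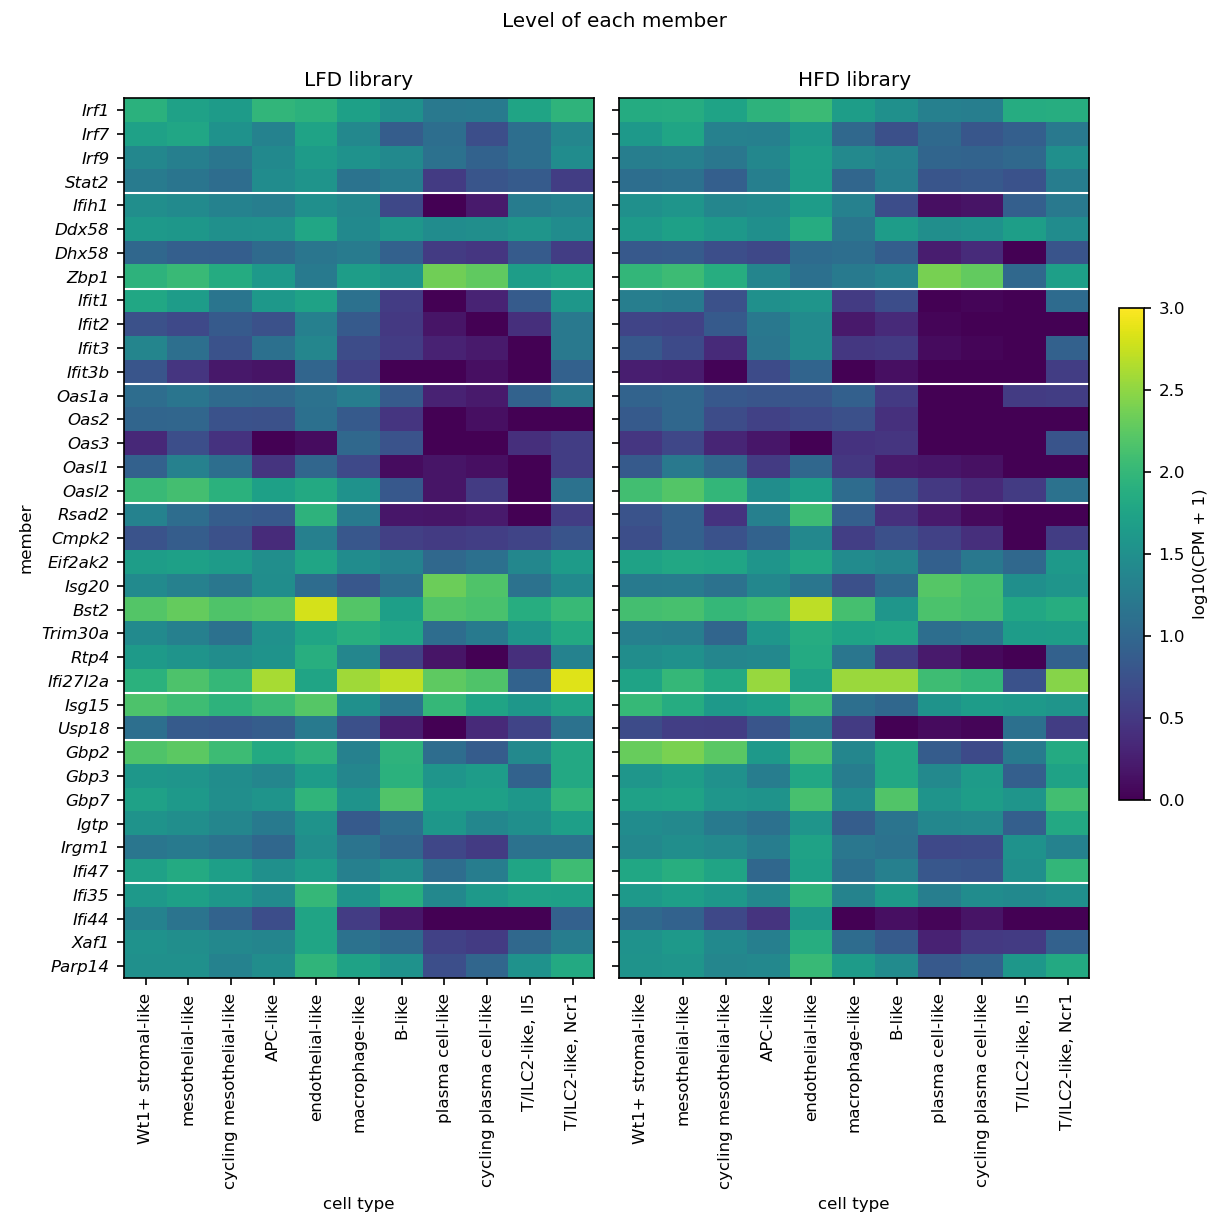
Level of each member (rows, in their functional groups) in each compared cell type (columns) as log10(CPM + 1), with the LFD library on the left and the HFD library on the right. Along its row Bst2 is highest in endothelial-like cells in both libraries. Ifi27l2a is highest in T/ILC2-like cells led by Ncr1 in the LFD library and in B-like cells in the HFD library. The IFIT rows are near 0 in the plasma cell-like columns apart from a few counts.

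Bst2 and Ifi27l2a passed the minimum in nearly every type and were lower in the HFD library in each of these. Bst2 (tetherin), which holds budding virus at the cell surface, had ratios below 1 in 11 of 11 types, with an interval below 1 in 7. Its level was greatest in endothelial-like cells, with 643 CPM (618 to 669) in LFD against 506 CPM (478 to 534) in HFD and a ratio of 0.787 (0.735 to 0.842), and the other types had 47.9 to 195 CPM in LFD. It was past the fold in cycling mesothelial-like cells alone, at 149 and 97.5 CPM (0.654, 0.610 to 0.701). Mesothelial-like cells had 195 and 133 CPM (0.681, 0.653 to 0.710), Wt1-positive stromal-like cells 156 and 127 CPM (0.818, 0.779 to 0.859), the APC-like type 161 and 118 CPM (0.732, 0.643 to 0.833) and macrophage-like cells 156 and 130 CPM (0.831, 0.724 to 0.955). The ratio was 0.918 in the plasma cell-like type (153 and 141 CPM), 0.935 in its cycling counterpart (136 and 127 CPM) and 0.846 in Il5-led cells (72.2 and 61.1 CPM), with intervals that included 1. Ifi27l2a, a small mitochondrial membrane protein, had ratios below 1 in 10 of 10 types, with an interval below 1 in 8, and was past the fold in 5. It had 710 CPM (630 to 798) in LFD against 287 CPM (237 to 345) in HFD in T/ILC2-like cells led by Ncr1 (0.404, 0.322 to 0.504), 512 and 352 CPM in B-like cells (0.686, 0.637 to 0.739), 179 and 115 CPM in plasma cell-like cells (0.644, 0.573 to 0.726), 148 and 96.3 CPM in cycling plasma cell-like cells (0.650, 0.582 to 0.727) and 82.3 and 53.6 CPM in Wt1-positive stromal-like cells (0.651, 0.605 to 0.700). In APC-like cells it had 405 and 347 CPM (0.856, 0.791 to 0.927) and in macrophage-like cells 377 and 349 CPM (0.927, 0.850 to 1.01). Counts of these genes come from the 3′ end of transcripts and were not set against gene length, so levels are compared here within a gene.

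Of the remaining antiviral effectors, Isg20, an exonuclease, was most abundant in plasma cell-like cells, at 209 and 163 CPM (0.779, 0.700 to 0.867), had 146 and 128 CPM in their cycling counterpart (0.874, 0.785 to 0.974), and passed the fold in Wt1-positive stromal-like cells, at 25.9 and 16.1 CPM (0.622, 0.544 to 0.709). Rtp4 was below 1 in 6 of 6 types and past the fold in macrophage-like cells, at 22.8 and 14.003 CPM (0.614, 0.409 to 0.917). Eif2ak2, the kinase PKR that stops translation upon double-stranded RNA, was not past the fold in any of 9 types, with ratios from 0.785 to 1.29, and neither was Trim30a, with ratios from 0.699 to 1.27, among them 0.733 (0.595 to 0.902) in macrophage-like cells, at 74.5 and 54.6 CPM.

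The GTPases that gather on the membranes around intracellular microbes, the GBP and IRG families, had the highest ratio of the 8 groups in the stromal, mesothelial and endothelial types. Their summed level was 336 CPM (330 to 342) in LFD against 400 CPM (391 to 409) in HFD in Wt1-positive stromal-like cells (1.19, 1.16 to 1.23), 362 and 478 CPM in mesothelial-like cells (1.32, 1.29 to 1.35), 256 and 335 CPM in cycling mesothelial-like cells (1.31, 1.26 to 1.37) and 328 and 474 CPM in endothelial-like cells (1.44, 1.33 to 1.56). These ratios exceeded the median of all genes in the same types. In APC-like cells the order was the opposite, at 180 and 130 CPM (0.725, 0.642 to 0.820), as it was in plasma cell-like cells, at 148 and 98.2 CPM (0.662, 0.582 to 0.755).

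Irgm1, a regulator of the IRG family that also takes part in autophagy, was past 1.5-fold higher in 6 of the 8 types in which it passed the minimum and below 1 in none of them. It had 14.2 CPM (12.9 to 15.6) in LFD against 23.8 CPM (21.7 to 26.1) in HFD in Wt1-positive stromal-like cells (1.68, 1.47 to 1.91), 16.2 and 29.4 CPM in mesothelial-like cells (1.81, 1.61 to 2.04) and 12.9 and 24.8 CPM in cycling mesothelial-like cells (1.93, 1.61 to 2.31). In endothelial-like cells it had 29.3 and 52.4 CPM (1.79, 1.38 to 2.33) and in APC-like cells 8.9997 and 17.9 CPM (1.98, 1.22 to 3.38). The interval included 1 in cycling plasma cell-like cells (1.69, 0.753 to 4.45), in B-like cells (1.42, 0.871 to 2.32) and in macrophage-like cells (1.08, 0.682 to 1.74). The Irgm1 and Ifit1 ratios lay on opposite sides of 1 in each of the 4 stromal and mesothelial subclusters, where Irgm1 had 1.64, 1.37, 1.62 and 2.12.

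The direction of Gbp2 also differed between types. It had 148 and 200 CPM in Wt1-positive stromal-like cells (1.35, 1.30 to 1.41), 173 and 249 CPM in mesothelial-like cells (1.44, 1.39 to 1.49), 114 and 171 CPM in cycling mesothelial-like cells (1.49, 1.40 to 1.59) and 87.0 and 141 CPM in endothelial-like cells (1.62, 1.39 to 1.89), the last of which was 1.48 when scaled to the median gene. In APC-like cells it had 65.7 and 40.1 CPM (0.610, 0.494 to 0.754), and in B-like cells 85.8 and 61.9 CPM (0.722, 0.601 to 0.865), the latter not past the fold. It was also lower past the fold in plasma cell-like cells, at 10.8 and 6.44 CPM (0.595, 0.363 to 1.01), and in cycling plasma cell-like cells, at 6.52 and 3.76 CPM (0.577, 0.332 to 1.04), both with intervals that included 1. Ifi47, another IRG protein, had its 2 lowest ratios in cycling plasma cell-like cells, 17.6 and 5.02 CPM (0.285, 0.193 to 0.422), and in APC-like cells, 31.0 and 9.18 CPM (0.296, 0.204 to 0.428). It had 10.8 and 5.49 CPM in plasma cell-like cells (0.507, 0.305 to 0.868) and 66.8 and 75.9 CPM in mesothelial-like cells (1.137, 1.07 to 1.21). Gbp7 was highest in B-like cells, at 153 and 151 CPM (0.982, 0.868 to 1.11), and had its highest ratio in endothelial-like cells, 89.95 and 132 CPM (1.47, 1.26 to 1.72). In T/ILC2-like cells led by Ncr1, Gbp7 had 93.2 and 121 CPM and Ifi47 116 and 95.7 CPM, and in those led by Il5 Ifi47 had 56.5 and 30.6 CPM, from too few counts for a ratio. Gbp3 was not past the fold in any of 9 types (0.685 to 1.42). Igtp passed it in plasma cell-like cells, at 38.1 and 23.2 CPM (0.609, 0.470 to 0.796).

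Among the transcription factors of the response, Irf1 had no ratio past the fold in 11 types. It had 50.7 and 71.2 CPM in mesothelial-like cells (1.40, 1.31 to 1.503) and 80.9 and 69.6 CPM in Wt1-positive stromal-like cells (0.861, 0.806 to 0.920), so its direction differed between them. APC-like cells had 93.1 and 86.1 CPM (0.925, 0.786 to 1.09) and T/ILC2-like cells led by Il5 54.9 and 70.5 CPM (1.28, 0.761 to 2.15). Irf7, which amplifies interferon production, was lower past the fold in macrophage-like cells, at 24.0 and 9.34 CPM (0.389, 0.245 to 0.607), and in cycling mesothelial-like cells, at 32.4 and 19.8 CPM (0.612, 0.524 to 0.713). Stat2 had 16.9 and 11.3 CPM in Wt1-positive stromal-like cells (0.669, 0.569 to 0.784), and its ratio of 2.20 (0.880 to 7.07) in plasma cell-like cells rested on 5 LFD counts. Irf9 was not past the fold in 9 types.

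Sensors of foreign nucleic acids had their lowest summed ratio in macrophage-like cells. Their summed level there was 111 CPM (98.2 to 125) in LFD against 60.7 CPM (52.7 to 69.5) in HFD and a ratio of 0.547 (0.455 to 0.657), whereas mesothelial-like cells had 178 and 203 CPM (1.1403, 1.10 to 1.18). Zbp1, a sensor of Z-form nucleic acids, had 45.2 and 16.0 CPM in macrophage-like cells (0.355, 0.252 to 0.494) and 40.5 and 22.4 CPM in APC-like cells (0.552, 0.420 to 0.730), but in plasma cell-like cells, where its level was highest, 221 and 239 CPM (1.08, 0.979 to 1.20), and in cycling plasma cell-like cells 184 and 187 CPM (1.01, 0.923 to 1.11). In B-like cells, at 33.4 and 20.4 CPM, its ratio of 0.613 (0.447 to 0.834) became 1.29 when doublets were kept and all cells clustered again, which also redrew the types. Ddx58, or RIG-I, which detects uncapped RNA, had 25.6 and 14.003 CPM in macrophage-like cells (0.547, 0.368 to 0.807) and 38.2 and 49.6 CPM in mesothelial-like cells (1.30, 1.20 to 1.40). Dhx58 (LGP2), a relative without the signalling domain, was below 1 in 6 of 6 types and had 9.06 and 5.84 CPM in Wt1-positive stromal-like cells (0.645, 0.514 to 0.804). Ifih1 (MDA5), the sensor of long double-stranded RNA, was not past the fold in 6 types and reached 1.45 (1.11 to 1.90) in endothelial-like cells.

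Of the last 4 members, Ifi44 was lower past the fold in the stromal and mesothelial types, with 20.2 and 9.59 CPM in Wt1-positive stromal-like cells (0.474, 0.401 to 0.559), 13.4 and 7.67 CPM in mesothelial-like cells (0.573, 0.483 to 0.678) and 8.07 and 3.44 CPM in cycling mesothelial-like cells (0.426, 0.294 to 0.606). In endothelial-like cells it had 56.2 and 38.9 CPM (0.693, 0.540 to 0.884). Ifi35 passed the fold in B-like cells, at 74.5 and 42.1 CPM (0.565, 0.457 to 0.697), and in macrophage-like cells (0.617, 0.445 to 0.855). Xaf1, linked to cell death, had a ratio of 0.649 (0.356 to 1.15) in B-like cells, which became 1.08 when doublets were kept and all cells clustered again, and Parp14, an ADP-ribosyl transferase, was not past the fold in 10 types.

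Part of a count can come from RNA that floats free and enters every droplet. From UMIs of immunoglobulin genes in cells outside the B lineage and of collagen genes and Dcn in immune cells, free RNA was estimated to make up 1.25 to 8.71% of the summed member level in the compared types and libraries, except for APC-like cells of the LFD library, where the estimate was 19.2% against 3.35% in the HFD library. The part of this in the lower APC-like levels in HFD was not tested. Among the compared types, the number of members at or below this estimate was highest in T/ILC2-like cells led by Il5 in the HFD library (12, against 7 in LFD). In the LFD library it was highest in plasma cell-like cells (9, against 6 in HFD, in both with Ifit1 and Oas2). Cycling plasma cell-like cells had 7 in the HFD and 4 in the LFD library. Values that low are read as background.

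UMIs of the members were also followed cell by cell. The cells were thinned at random to 2000 UMIs each, so that depth was equal, and UMIs of Ifit1, Ifit2, Ifit3, Isg15 and Rsad2 were added per cell. In Wt1-positive stromal-like cells 241 of 2834 LFD cells (8.50%, 7.50 to 9.59%) and 57 of 1179 HFD cells (4.83%, 3.68 to 6.22%) had at least 2 such UMIs, and 54 LFD against 4 HFD cells had at least 5. Thinning left out 11 LFD and 12 HFD cells of that type. Without thinning the order of the first share was the opposite, at 32.3% and 38.5%, and the median depth of the cells with fewer than 2 such UMIs after thinning was 10671 UMIs in the LFD and 16367 in the HFD library. In mesothelial-like cells the thinned shares were 6.06% (117 of 1931) and 3.50% (58 of 1655), and 26 LFD against 1 HFD cell had at least 5 UMIs. The richest cell had 40 UMIs in the LFD and 11 in the HFD library of the Wt1-positive stromal-like type, and 25 and 5 of the mesothelial-like type. In these types the LFD library thus held a tail of strongly positive cells, while 45.8% of LFD and 40.7% of HFD Wt1-positive stromal-like cells had none of these UMIs before thinning. This did not hold in every type, since the richest APC-like cell had 7 UMIs in the LFD and 45 in the HFD library.

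In endothelial-like cells no such difference was detectable at this depth. There 83 of 473 LFD cells (17.5%, 14.2 to 21.3%) and 62 of 436 HFD cells (14.2%, 11.1 to 17.9%) had at least 2 of these UMIs, 188 and 169 shallower cells being left out. In B-like cells, taken as an upper bound on what free RNA gives, the shares were 5 of 900 (0.556%, 0.181 to 1.29%) and 2 of 701 (0.285%, 0.0346 to 1.03%). Below 2 such UMIs, the median depth was 3775 and 4081 UMIs in B-like and 6550.5 and 3985 UMIs in endothelial-like cells. The shares in the stromal, mesothelial and endothelial types lay above that bound.

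**Figure D4:**
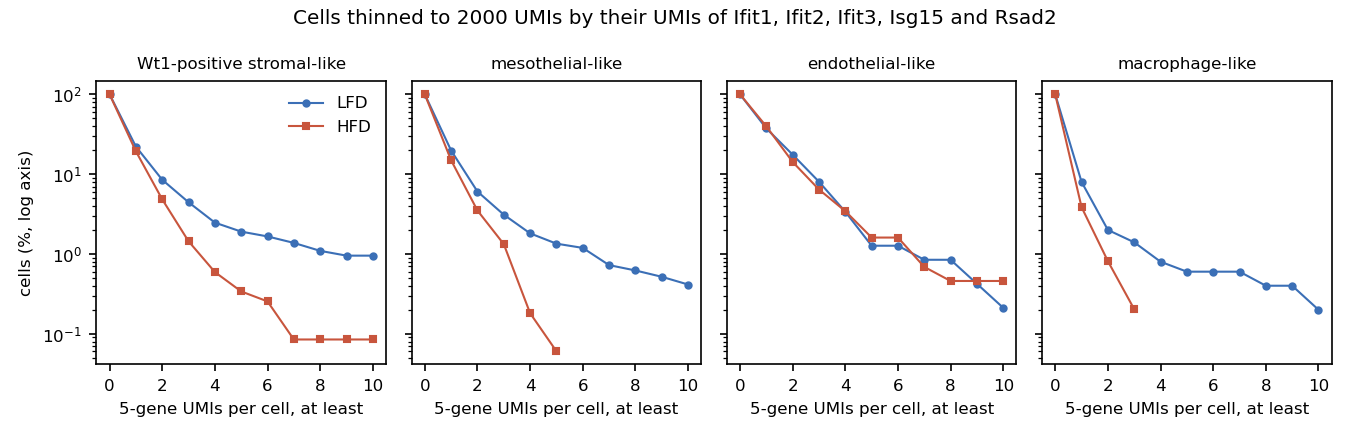
Share of cells (vertical, log axis, in %) with at least the number of UMIs of Ifit1, Ifit2, Ifit3, Isg15 and Rsad2 on the horizontal axis, after thinning each cell to 2000 UMIs, in 4 cell types, with the LFD library in blue and the HFD library in red. At 2 UMIs the LFD and HFD shares are 8.50% and 4.83% in Wt1-positive stromal-like cells, 6.06% and 3.50% in mesothelial-like cells, 17.5% and 14.2% in endothelial-like cells and 2.00% and 0.813% in macrophage-like cells.

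Cells rich in these 5 genes also had more of the other 32 members, which had not been used to pick them. In LFD Wt1-positive stromal-like cells with at least 2 of the 5-gene UMIs, the 32 others summed to 3301 CPM (3141 to 3467), against 1254 CPM (1223 to 1285) in the remaining cells, 2.63 times as much, and in HFD cells to 2289 CPM against 1311 CPM, 1.75 times. The intervals of the remaining cells of the 2 libraries overlapped (1264 to 1359 CPM in HFD), and those of the positive cells did not (2020 to 2585 CPM in HFD). In mesothelial-like cells the values were 3500 and 1412 CPM in LFD and 2802 and 1601 CPM in HFD, and in LFD macrophage-like cells 5550 and 1188 CPM, from only 10 positive cells. Of the 30 genes most enriched in the positive LFD Wt1-positive stromal-like cells, 14 were members and 6 belonged to a list of 40 other interferon-stimulated genes, with Ifi44 (6.56 times), Usp18 (5.03 times) and Cxcl10 among the first. In the HFD library, with 57 positive cells against 241, 2 members and 3 genes of that list were among the 30. There 19 members were among 5612 ranked genes, and 28 among 8137 in the LFD library, so the counts of the libraries are not directly comparable. Positive and remaining cells had median depths of 9970 and 10671 UMIs and median mitochondrial shares of 5.83% and 6.01% in the LFD library.

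**Figure D5:**
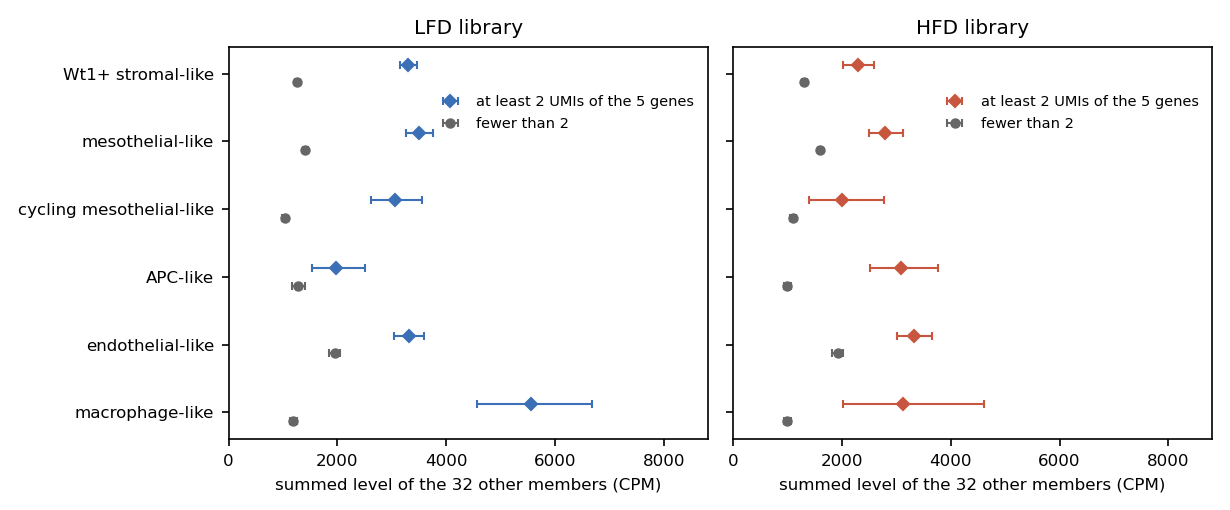
Summed level in CPM (horizontal axis) of the 32 members outside the 5 genes, in cells thinned to 2000 UMIs, for cells with at least 2 UMIs of the 5 genes (diamonds) and with fewer (grey circles), by cell type, with the LFD library on the left, the HFD library on the right, and bars for exact 95% Poisson intervals. In both libraries the diamonds lie to the right of the circles in all 6 types shown.

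Over all types together, 1874 of 8690 LFD cells (21.6%, 20.7 to 22.4%) and 1310 of 7384 HFD cells (17.7%, 16.9 to 18.6%) had at least 5 member UMIs after thinning. Without thinning the shares were 80.3% and 79.0%. The types make up different shares of the 2 libraries, and the part of their make-up in this pair of values was not tested.

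Of 40 other interferon-stimulated genes, 35 passed the minimum in Wt1-positive stromal-like cells, 1 higher and 1 lower past the fold, beside 7.84% and 7.27% of all genes. Gbp9 had 8.72 and 13.996 CPM (1.61, 1.35 to 1.91), and Iigp1, an IRG protein that disrupts the vacuoles of parasites, 108 and 51.0 CPM (0.473, 0.440 to 0.508). In mesothelial-like cells the counts were 1 and 1 of 35 (9.06% and 3.79% of all genes), and in APC-like cells 2 and 4 of 30 (15.7% and 5.18%). In endothelial-like cells 7 of 32 were higher and 2 lower, beside 17.4% and 7.54% of all genes, so these counts are near the shares of all genes. Slfn5 was at 314 and 570 CPM (1.81, 1.68 to 1.96), the chemokine Cxcl9 at 91.0 and 157 CPM (1.72, 1.49 to 2.00), Gbp5 at 7.12 and 16.7 CPM (2.34, 1.41 to 3.95) and Samhd1, which depletes nucleotides, at 69.9 and 125 CPM (1.79, 1.52 to 2.12), whereas the chemokine Cxcl10 had 30.1 and 15.5 CPM (0.515, 0.349 to 0.747). In macrophage-like cells 1 of 28 was higher and 7 were lower (7.66% and 4.06% of all genes). Among these, Ms4a4c had 61.3 and 13.4 CPM (0.219, 0.154 to 0.306), Ly6e 550 and 292 CPM (0.530, 0.488 to 0.576) and Cxcl10 29.6 and 11.4 CPM (0.384, 0.254 to 0.573). Among plasma cell-like cells 0 of 22 were higher and 8 lower (6.8% and 14.1%), and in cycling plasma cell-like cells 1 of 24 and 8 (5.38% and 5.02%).

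Of the 7 signalling genes, 0 were higher and 2 lower past the fold in Wt1-positive stromal-like cells, beside 7.84% and 7.27% of all genes there. The lower ones were the inhibitors Socs3 and Socs1, which are induced by cytokines and shut off JAK kinases. Socs3 had 219 CPM (214 to 225) in LFD against 84.6 CPM (80.6 to 88.8) in HFD in Wt1-positive stromal-like cells (0.385, 0.365 to 0.407), 122 and 73.8 CPM in mesothelial-like cells (0.603, 0.571 to 0.636) and 338 and 197 CPM in APC-like cells (0.584, 0.532 to 0.641). Socs1 had 47.0 and 18.7 CPM in Wt1-positive stromal-like cells (0.397, 0.353 to 0.446). Of 13 genes of sensing and induction, 11 passed in Wt1-positive stromal-like cells, 1 higher and 1 lower past the fold, close to the same shares of all genes. Irf5 had 6.85 and 13.4 CPM there (1.95, 1.62 to 2.35) and Irf8 2.24 and 1.28 CPM (0.572, 0.347 to 0.913). Tmem173, or STING, the adaptor of cytosolic DNA sensing, had 47.2 and 26.0 CPM in macrophage-like cells (0.550, 0.413 to 0.730).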

How the data were processed

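The deposited tables hold whole-number UMI counts per gene and barcode, made by the authors with Cell Ranger 4.0.0 (per the submitters' processing notes, which also name the genome build mm10, bcl2fastq 2.17.1.14, STAR and Seurat 4.1.0) and not normalized. Counts run from the 3′ end of transcripts. Barcodes with 500 to 40000 UMIs, at least 100 genes and under 12.5% mitochondrial UMIs were kept, and the cells with the highest Scrublet scores were removed as likely doublets at 0.8% per 1000 barcodes (922 LFD, 9.03%, and 658 HFD, 7.71%). Median depth was 10213.5 UMIs per LFD cell and 12709 per HFD cell. Both libraries were joined by anchor integration in R 4.3.3 with Seurat 5.3.0. Cells were clustered on the integrated values (2000 variable genes less the members and listed pathway genes, 30 principal components, resolution 0.3), giving 16 clusters. A cluster was named where at least 3 markers and 50% of a list passed. A marker passed when seen in at least 10% of the cluster's cells, at a CPM above 2 times the median over clusters. This naming rule was settled after the clusters were seen. Members and lists were chosen with earlier results of these data known.

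Counts were summed per type and library in Python 3.11.15 (numpy 2.4.6, scipy 1.17.1, pandas 2.3.3, scanpy 1.11.5) and divided by the type's total UMIs. With 1 library per diet no test was run. Levels have exact Poisson intervals, HFD to LFD ratios exact conditional binomial intervals and shares exact Clopper-Pearson intervals, all at 95% and for counting error only. Ratios needed 50 counts over both libraries, and a ratio of at least 1.5 or at most its inverse was called past the fold. For each type the 3 members with the highest level and up to 3 highest and 3 lowest ratios past the fold were named, beside 1 account of every member. The computation was tested on simulated data. Figures were drawn with matplotlib 3.10.9. Promoters came from RefSeq windows, loci from GENCODE M21. The values of 1 signalling gene are not reported here.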

Additional observations from a re-analysis of the deposited data

Results flagged for a closer look

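Rsad2 differed in direction between cell types, with an HFD to LFD ratio of 3.31 in APC-like cells and 0.242 in Wt1-positive stromal-like cells, 13.7 times apart, so that the libraries differed in opposite directions in these types. The difference was not tested, since each diet has 1 library. Of the HFD counts of Rsad2 in APC-like cells 79.3% were in 1 cell, and 2.98% of that cell's 11794 UMIs came from members. Without the highest cell of each library the APC-like ratio was 0.682 (0.334 to 1.46).

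Gbp2 had a ratio of 1.62 in endothelial-like cells and 0.610 in APC-like cells, 2.66 times apart. This difference was not tested either.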

How the results depend on the processing

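No paired analysis was possible because the labels give no replicate numbers and each diet has 1 library. Of 72 summed ratios under other settings, 47 moved by less than their interval, 23 moved and 2 reversed. Scaling to the median gene gave 0.841 in Wt1-positive stromal-like, 0.915 in mesothelial-like, 0.871 in cycling mesothelial-like, 0.760 in APC-like, 0.913 in endothelial-like, 0.753 in B-like and 0.889 in plasma cell-like cells. The mean of per-cell CPM gave 0.876 in Wt1-positive stromal-like, 0.879 in endothelial-like, 0.832 in macrophage-like, 0.762 in plasma cell-like and 0.841 in cycling plasma cell-like cells. Keeping doublets and clustering again, 2 changes at once that also redrew the types (mesothelial-like from 1934 and 1661 to 1314 and 1286 cells), gave 0.946 in mesothelial-like, 0.780 in APC-like, 0.969 in endothelial-like and 0.928 in B-like cells. Cells with at least 2000 UMIs and under 5% mitochondrial UMIs gave 1.06 in Wt1-positive stromal-like (reversed), 1.05 in mesothelial-like, 0.902 in cycling mesothelial-like, 1.18 in endothelial-like and 0.509 in macrophage-like cells. Leaving out the 1% of cells richest in the 5 genes, chosen after seeing the data, gave 0.944 in Wt1-positive stromal-like, 1.04 in mesothelial-like, 1.01 in cycling mesothelial-like (reversed) and 0.804 in macrophage-like cells. The cause of these shifts was not tested.

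Counts of members past the fold moved by over 1.5 times in 24 of 83 cases. They are given with the members that passed and, in brackets, the shares of all genes higher and lower under the same setting. Median-gene scaling gave 9 of 36 in endothelial-like (10.8% and 11.9%) and 6 of 21 in B-like cells (7.04% and 7.98%). A minimum of 20 counts gave 8 of 28 in B-like cells (11.6% and 8.49%), 7 of 14 in the Il5-led (18.8% and 15.8%) and 3 of 17 in the Ncr1-led T/ILC2-like cells (17.05% and 10.7%). A single count in each library gave 18 of 35 in macrophage-like (14.6% and 10.6%), 12 of 35 in B-like (15.4% and 13.9%), 11 of 29 in plasma cell-like (10.5% and 24.4%), 10 of 30 in cycling plasma cell-like (9.54% and 17.5%), 14 of 24 in Il5-led (21.9% and 19.3%) and 15 of 32 in Ncr1-led cells (23.97% and 17.4%), so the calls of all genes rose as well. Keeping doublets and clustering again gave 7 of 30 in B-like (7.96% and 4.21%), 2 of 20 in cycling plasma cell-like (5.28% and 5.04%) and 2 of 4 in Il5-led cells (16.8% and 13.98%). The stricter cell filter gave 7 of 33 in Wt1-positive stromal-like (10.04% and 4.95%), 11 of 28 in endothelial-like, all higher (22.4% and 12.8%), 6 of 10 in macrophage-like (9.48% and 5.19%) and 2 of 19 in cycling plasma cell-like cells (6.17% and 4.25%). Without the richest 1% there were 5 of 36 in mesothelial-like (9.15% and 3.71%), 7 of 36 in endothelial-like (17.4% and 7.64%), 7 of 24 in macrophage-like (7.46% and 4.04%), 5 of 20 in B-like (9.48% and 6.09%) and 2 of 5 in Ncr1-led cells (11.3% and 8.07%), and without the highest cell 5 of 20 in B-like cells (9.54% and 6.19%). The share of cells with at least 4 member UMIs was 32.04% in LFD and 27.4% in HFD, and with at least 7, 10.5% and 7.14%. Of 402 single ratios 5 reversed: Zbp1 in B-like cells (1.29) and Xaf1 in B-like cells (1.08) with doublets kept and cells clustered again, Oas3 in Wt1-positive stromal-like cells (0.891) under the stricter filter, and Rsad2 in APC-like cells without the richest 1% (0.616) or the highest cell (0.682). At the finer clustering the naming rule labelled no cells endothelial-like, so that type had no value there. The stricter filter left too few APC-like, B-like and T/ILC2-like cells for a value. With 1 library per diet the spread between mice is unknown.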

Other observations

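The 5 other cell types were left out of the comparison because at least 1 library held fewer than 100 of their cells. Neutrophil-like cells had the highest summed level of the 37 members among these in the LFD library, at 2956 CPM from 749 counts, and 1271 CPM from 111 counts in the HFD library. Cycling B-like cells had 1279 and 1081 CPM, dendritic cell-like cells 833 and 712 CPM and mural-like cells 2128 and 1854 CPM. Cells without a name had 1251 and 1518 CPM. In the T/ILC2-like cells led by Ncr1, Ifitm3, which keeps viruses from fusing with endosomes, had 134 CPM in the LFD and 40.3 CPM in the HFD library, a ratio of 0.302, beside the low Ifi27l2a ratio in the same cells.

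Cells of the LFD library that were rich in the 5 genes Ifit1, Ifit2, Ifit3, Isg15 and Rsad2 also had higher levels of genes outside both interferon lists in the Wt1-positive stromal-like type, among them Apol9a (4.87 times), Gm4951 (4.56 times) and Pou3f1 (3.63 times), which were named after their values were seen. In LFD mesothelial-like cells 9 members and 9 genes of the list of other interferon-stimulated genes were among the 30 most enriched (26 and 28 of them were among the 6957 genes ranked), with Ifi44 at 5.92 times and Cxcl10 at 5.11 times. In HFD mesothelial-like cells the counts were 3 and 1 (23 and 28 of them were among the 6853 genes ranked). In endothelial-like cells they were 3 and 3 in the LFD library and 5 and 4 in the HFD library, among 3100 and 3149 ranked genes. The positive cells and ranked genes differ in number between libraries, so these counts are not directly comparable.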
